A study of Mus musculus with 30 samples.

Results

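The aryl hydrocarbon receptor genes described here are 7 genes chosen by symbol: the receptor Ahr, its partner Arnt, the feedback inhibitors Ahrr and Tiparp, and the enzyme genes Cyp1a1, Cyp1b1 and Nqo1. All 7 were found among the 55291 genes of the washout counts and among the 21859 genes of each time-course table. TT-seq reads RNA made during a short pulse: cells take up 4-thiouridine, here for 5 min, and only labelled RNA goes into the library, so introns are read as well as exons. The cells were mouse E14 embryonic stem cells with an auxin-inducible degron and a V5 tag on the C terminus of SPT16, which is part of FACT, a chaperone of histones. The auxin was 3-indole-acetic acid (IAA) at 500 nM, which triggers degradation of the tagged protein through the plant receptor osTIR1. The vehicle was ethanol (EtOH) at 0.1%. The labels record osTIR1 in all 22 time-course libraries, untagged cells included.

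The washout experiment had 8 libraries. SPT16-AID cells of 2 independently targeted lines, named 10E and 11D, received IAA or EtOH for 12 h and were then kept for 24 h in fresh medium without either, with 2 libraries per line and treatment. The time course had 11 groups of 2 libraries: untagged cells before (0 h) and 3, 6 and 12 h into IAA, and SPT16-AID cells before and 3, 6 and 12 h into either EtOH or IAA. All cells grew with LIF, the GSK inhibitor CHIR99021 and a MEK inhibitor. For the time course only the authors' comparison tables were used, and neither the groups each table compares nor the direction is stated. Values there keep the sign that the tables give them, with no statement of which cells were higher.

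The aryl hydrocarbon receptor is a transcription factor that rests in the cytoplasm with HSP90 chaperones until a flat aromatic ligand binds. Dioxins, products of tryptophan and indoles are known ligands. The bound receptor enters the nucleus, pairs with ARNT and binds the dioxin response element, which raises transcription of its targets. Cyp1a1 and Cyp1b1 encode cytochrome P450 enzymes that oxidise foreign aromatic compounds and estrogens, and Cyp1a1 is the usual reporter of the receptor's activity. Ahrr encodes a repressor that competes for ARNT, and Tiparp encodes an ADP-ribosyltransferase that modifies and restrains the receptor. Nqo1, a quinone reductase gene, also responds to the oxidative stress factor NRF2. IAA is itself an indole.

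The dioxin response element has the core GCGTG. This core was counted on both strands in the stretch from 250 bases before to 50 bases after the start of each gene, taken from RefSeq (GRCm38.p6). Of the 7 genes 6 were listed there, all but Ahr. The 4 promoters shown belong to the genes that stood higher in every IAA than in every EtOH library of the washout, with each core in capitals (CACGC where it lies on the other strand). They lie at chr13:74292282-74292581 (minus strand) for Ahrr, chr9:57697363-57697662 (plus strand) for Cyp1a1, chr17:79715012-79715311 (minus strand) for Cyp1b1 and chr3:65528197-65528496 (plus strand) for Tiparp.
Ahrr: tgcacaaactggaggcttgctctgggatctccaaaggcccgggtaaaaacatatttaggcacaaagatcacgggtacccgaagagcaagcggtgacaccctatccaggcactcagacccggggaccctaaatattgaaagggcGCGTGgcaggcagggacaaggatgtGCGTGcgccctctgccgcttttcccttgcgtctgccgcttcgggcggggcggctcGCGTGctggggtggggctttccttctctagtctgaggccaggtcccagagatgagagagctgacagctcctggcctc
Cyp1a1: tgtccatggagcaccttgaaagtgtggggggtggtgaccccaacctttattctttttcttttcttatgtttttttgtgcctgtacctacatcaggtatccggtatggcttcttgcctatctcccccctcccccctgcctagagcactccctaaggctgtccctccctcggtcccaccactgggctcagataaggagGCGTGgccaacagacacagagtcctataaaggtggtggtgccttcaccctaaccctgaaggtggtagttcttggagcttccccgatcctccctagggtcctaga
Cyp1b1: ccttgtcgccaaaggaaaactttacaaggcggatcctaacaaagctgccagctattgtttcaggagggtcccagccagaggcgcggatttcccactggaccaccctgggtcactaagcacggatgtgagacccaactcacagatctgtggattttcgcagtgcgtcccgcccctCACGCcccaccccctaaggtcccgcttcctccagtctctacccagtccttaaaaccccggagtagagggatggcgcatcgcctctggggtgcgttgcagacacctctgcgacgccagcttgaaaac
Tiparp: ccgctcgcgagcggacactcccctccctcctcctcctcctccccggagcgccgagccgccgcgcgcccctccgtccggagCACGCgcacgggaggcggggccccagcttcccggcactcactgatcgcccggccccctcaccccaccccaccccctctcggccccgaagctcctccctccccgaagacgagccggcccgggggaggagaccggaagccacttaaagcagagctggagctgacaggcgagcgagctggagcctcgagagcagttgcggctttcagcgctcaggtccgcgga

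Ahrr held 3 cores, and Cyp1a1, Cyp1b1, Tiparp and Arnt held 1 each, while the Nqo1 promoter held 0. Of all 32851 promoters of this length 32.4% held at least 1 core and 3.91% held 3 or more. The longer form TNGCGTG, which contains the core, stood once, in Ahrr, 27 bases before the start, and in 5.07% of all promoters. The core also contains CGTG, shared with the hypoxia response element. A match is a description of the letters and does not show binding. Enhancers further from the start were not searched.

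All 7 genes are protein-coding and lie on 6 chromosomes. In mm10 coordinates they are Ahr (chr12:35497974-35535038, minus strand), Arnt (chr3:95434388-95497240, plus), Ahrr (chr13:74211118-74292331, minus), Cyp1a1 (chr9:57687928-57703824, plus), Cyp1b1 (chr17:79701537-79715061, minus), Tiparp (chr3:65528410-65555518, plus) and Nqo1 (chr8:107388225-107403206, minus). Reads were counted over the whole gene, introns included, and exons make up from 10.4% (Nqo1) to 43.2% (Cyp1b1) of that length. The counted stretch of Cyp1a1 begins 9.685 kb before the RefSeq start of the main transcript, so its level per kb is a low estimate. Counting was by strand. Of genes that overlap a member, 1 lies on the same strand: the pseudogene Gm42672, over 352 bases of Arnt.

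The washout libraries held 11068135 to 16554314 counts in EtOH and 6547992 to 10978586 in IAA. The 10 loci with the most counts in IAA libraries, the 18S ribosomal RNA locus among them, took 7.48% to 11.7% of counts in EtOH and 30.6% to 41.8% in IAA libraries. Levels are read pairs per 1000000 counted (CPM) scaled by TMM, which sets most genes equal between libraries. On plain library totals the median gene was at −0.66 (log2, IAA minus EtOH), a shift of −0.61 from the TMM scale. Changes are therefore relative to the other genes unless library totals are named. Embryonic stem cell markers summed to 1879 to 3191 CPM in EtOH and 2016 to 2251 CPM in IAA libraries, with 0 of 7 tested called by edgeR (1 at an unadjusted p under 0.05, 0 called by DESeq2), and Sox2 was at 0 in all 8. In the authors' deposited time-course tables Sox2 had mean normalised counts of 3487, 3981, 2697 and 3199 at 0, 3, 6 and 12 h. Its 0 in the washout counts is therefore not read as absent transcription, and the reason for it was not tested. Of the other marker lists the 6 primitive endoderm genes summed to 8.90 to 12.1 CPM in EtOH and 15.1 to 16.5 CPM in IAA (2 of 4 tested higher), the 5 trophoblast genes to 9.62 to 14.8 and 16.5 to 18.7 CPM (0 of 3 by edgeR, 1 at an unadjusted p under 0.05, 1 called by DESeq2), and the 5 fibroblast genes to 0.274 to 1.24 and 0.527 to 2.02 CPM (0 tested). Of all genes tested 8.83% were called higher and 7.60% lower. The 2 higher primitive endoderm genes were Dab2 (log2 1.93 ± 0.43, edgeR adjusted p = 0.0110) and Pdgfra (1.14 ± 0.30, adjusted p = 0.0223), while Gata6 and Gata4 were not called. On library totals Dab2 was called (1.29) and Pdgfra was not (0.55 ± 0.33, edgeR adjusted p = 0.165). The primitive endoderm and trophoblast sums were higher in every IAA than in every EtOH library, as were 4 of the receptor genes, and their part in those values was not tested. RNA of Supt16, which the degron does not target, was at 0.53 ± 0.18 (log2 IAA minus EtOH ± SE, edgeR adjusted p = 0.0658).

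In EtOH cells the 7 genes fell into a higher and a lower range, as CPM per kb of gene length. Nqo1 stood at 2.39 ± 0.364 CPM per kb (SD, n = 4), Arnt at 1.74 ± 0.284, Tiparp at 1.54 ± 0.300 and Ahr at 0.727 ± 0.185. Lower came Cyp1a1 at 0.0306 ± 0.0220 CPM per kb, Ahrr at 0.0120 ± 0.00347 and Cyp1b1 at 0.00101 ± 0.00203. The ranges of Nqo1 and Arnt overlapped, as did those of Arnt and Tiparp, those of Cyp1a1 and Ahrr, and those of Cyp1a1 and Cyp1b1. In these EtOH libraries Cyp1a1, Ahrr and Cyp1b1 gave 0 to 29 counts each, and Ahr and Arnt 235 to 2833.

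After the washout, relative to the other genes, transcription of the target gene Cyp1a1 and the feedback genes Ahrr and Tiparp was higher in cells that had received IAA, and the target gene Nqo1, the receptor and its partner were not called different. Cyp1a1 was 11.6-fold higher, Ahrr 3.40-fold and Tiparp 1.62-fold, while Cyp1b1 gave 21 counts over the IAA libraries against 1 over the EtOH libraries. Of the 6 members that passed the low-count filter, 3 were called higher and 0 lower (edgeR quasi-likelihood test, two-sided, Benjamini-Hochberg adjusted p under 0.05). Cyp1a1 and Ahrr passed this filter through their IAA libraries, where they stood higher. The count of calls is therefore given as a value and supports nothing. Over all 15110 genes tested 8.83% were called higher and 7.6% lower. On library totals these calls were 433 higher and 7422 lower, against 1334 and 1149 on the TMM scale. Of all 7 genes 4 did not overlap between the groups, all with IAA higher: Ahrr, Cyp1a1, Tiparp and the untested Cyp1b1. The first 3 are among the 6 tested members. Over all tested genes 11.8% did not overlap in that direction and 11.3% in the other, a background that Cyp1b1 lies outside. Cyp1a1 and Ahrr entered that background through their IAA libraries, so the count without overlap is also given as a value and supports nothing. In such bulk libraries more cells that transcribe a gene and more transcription per cell cannot be told apart. No label says that the 2 libraries of a line and treatment are separate cultures, and the p-values then describe only the spread of these libraries, which may be technical.

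**Figure D1:**
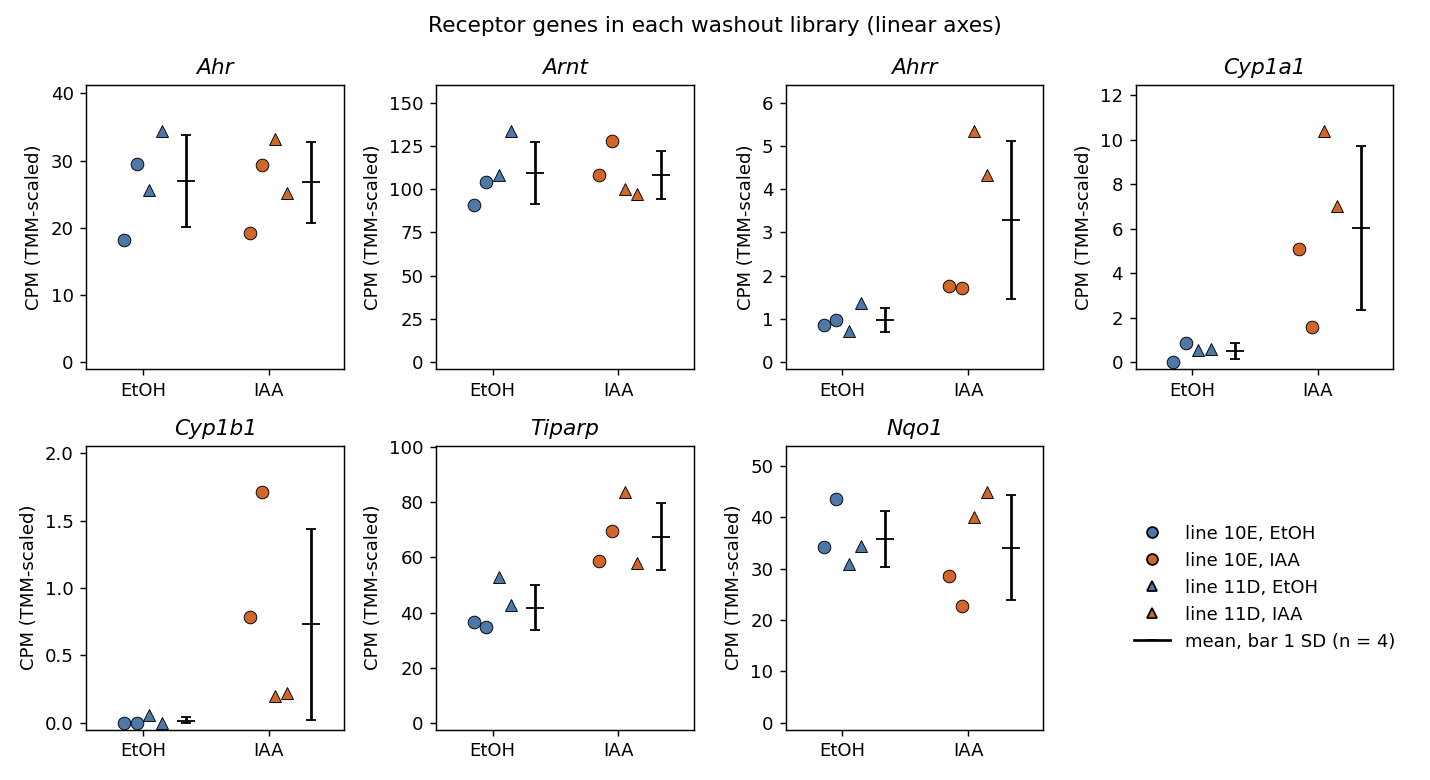
Each panel shows 1 gene in the 8 washout libraries, as TMM-scaled CPM on a linear axis, with circles for line 10E and triangles for line 11D, EtOH left and IAA right, and the mean with 1 SD (n = 4) beside them. The IAA libraries lie above all EtOH libraries for Ahrr, Cyp1a1, Cyp1b1 and Tiparp, and the groups overlap for Ahr, Arnt and Nqo1.

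Ahr stood at 18.2 and 29.5 CPM in EtOH and at 19.2 and 29.4 CPM in IAA libraries of line 10E. In line 11D it stood at 25.7 and 34.4 CPM in EtOH and at 33.3 and 25.1 CPM in IAA libraries. The groups overlapped throughout, with means of 26.9 ± 6.84 and 26.8 ± 6.03 CPM (SD, n = 4), and the log2 difference was −0.01 ± 0.23 (SE, edgeR adjusted p = 0.988, 95% interval −0.49 to 0.48). In folds the interval ran from 0.710 to 1.40.

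Arnt, the obligate partner, had means of 109 ± 17.9 CPM in EtOH and 108 ± 13.99 CPM in IAA libraries (SD, n = 4), a log2 difference of −0.01 ± 0.17 (SE, edgeR adjusted p = 0.971, 95% interval −0.38 to 0.35). In line 10E its EtOH libraries were at 91.0 and 104 CPM and its IAA libraries at 108 and 128 CPM. In line 11D the EtOH libraries were at 108 and 134 CPM and the IAA libraries at 100.1 and 97.2 CPM. The order was therefore opposite in the 2 lines. On library totals Arnt went with the median gene, at −0.65 ± 0.17 (log2 ± SE, edgeR adjusted p = 0.00941).

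Ahrr, the repressor, was read at 0.851 and 0.972 CPM in EtOH and 1.77 and 1.71 CPM in IAA libraries of line 10E, from 9 to 21 counts each. In line 11D it was read at 0.713 and 1.37 CPM in EtOH and at 5.35 and 4.34 CPM in IAA libraries. All IAA libraries lay above all EtOH libraries, and those of line 11D stood highest. The mean rose from 0.976 ± 0.282 to 3.29 ± 1.84 CPM (SD, n = 4), a log2 difference of 1.76 ± 0.44 (SE, edgeR adjusted p = 0.0188). The call was lost with line and number as a block (adjusted p = 0.0554), without the first IAA library of line 11D (0.0652) and on library totals (1.20 ± 0.50, adjusted p = 0.0594).

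Tiparp, the second feedback gene and the best measured of the 4, gave 300 to 962 counts per library. In line 10E its EtOH libraries were at 36.7 and 34.7 CPM and its IAA libraries at 58.8 and 69.6 CPM. In line 11D its EtOH libraries were at 52.8 and 42.9 CPM and its IAA libraries at 83.8 and 57.8 CPM. The groups did not overlap, and the mean rose from 41.8 ± 8.14 to 67.5 ± 12.1 CPM (SD, n = 4), 1.62-fold (95% interval 1.22 to 2.14; log2 0.69 ± 0.19, edgeR adjusted p = 0.0255). This is a rise relative to the other genes: on library totals Tiparp stood at 51.5 CPM in EtOH and 55.2 CPM in IAA libraries (log2 0.10 ± 0.22, edgeR adjusted p = 0.709). The call was also lost without either EtOH library of line 10E (adjusted p = 0.0602 and 0.0815) and without the first IAA library of line 11D (0.0792).

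Cyp1a1, the P450 gene used as the receptor's reporter, gave 0 and 18 counts in the EtOH libraries and 26 and 12 in the IAA libraries of line 10E, or 0, 0.833, 5.10 and 1.58 CPM. The count of 0 allows up to 0.232 CPM (3 counts in that library). In line 11D it gave 10 and 12 counts in EtOH and 103 and 63 in IAA libraries, or 0.549, 0.566, 10.4 and 7.01 CPM. All IAA libraries lay above all EtOH libraries, and the second IAA library of line 10E was the lowest of them. The mean rose from 0.487 ± 0.350 to 6.02 ± 3.68 CPM (SD, n = 4), 11.6-fold (95% interval 4.25 to 31.9; log2 3.54 ± 0.67, edgeR adjusted p = 0.00554). The change was also called on library totals (2.99 ± 0.72, edgeR adjusted p = 0.00618) and without any 1 library (adjusted p from 0.00208 to 0.0163), but not among the number 2 libraries alone (2.65 ± 0.73, edgeR adjusted p = 0.111). Of the 6 tested members it had the largest change.

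Cyp1b1, the second P450 gene, did not pass the low-count filter. It gave 0, 0, 1 and 0 counts in the EtOH libraries (line 10E, then 11D) and 4, 13, 2 and 2 in the IAA libraries. In CPM the IAA libraries stood at 0.785 and 1.71 in line 10E and at 0.202 and 0.222 in line 11D, and the highest EtOH library at 0.0549. The groups did not overlap (exact permutation p = 0.0286, two-sided, which is as low as 8 libraries in groups of 4 can give). The ratio of the summed counts per depth was 49.2, with a 95% interval of 7.91 to 2033 that covers counting error only. Without the filter edgeR put it at 4.90 ± 1.16 (log2 ± SE, adjusted p = 0.000695), and DESeq2 at 5.44 ± 1.40 (adjusted p = 0.00173). Here the IAA libraries of line 10E held more than those of 11D, whereas for Ahrr and Cyp1a1 those of 11D held more. The difference between lines in the Cyp1b1 change was −3.85 ± 2.95 (log2 ± SE, DESeq2, which gave it no adjusted p).

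Nqo1, the quinone reductase gene, had means of 35.8 ± 5.45 CPM in EtOH and 34.1 ± 10.1 CPM in IAA libraries (SD, n = 4), a log2 difference of −0.07 ± 0.22 (SE, edgeR adjusted p = 0.861). In line 10E its EtOH libraries were at 34.3 and 43.6 CPM and its IAA libraries at 28.6 and 22.8 CPM. In line 11D its EtOH libraries were at 30.9 and 34.3 CPM and its IAA libraries at 39.9 and 44.9 CPM. The IAA libraries were thus lower than EtOH in line 10E and higher in line 11D.

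Within lines, Cyp1a1 stood at 2.76 ± 0.92 in 10E (log2 IAA minus EtOH ± SE, edgeR adjusted p = 0.0609) and 3.94 ± 0.88 in 11D (adjusted p = 0.0463). Ahrr stood at 0.92 ± 0.54 (adjusted p = 0.252) and 2.20 ± 0.49 (0.0445), and Tiparp at 0.85 ± 0.24 (0.0361) and 0.57 ± 0.24 (0.235). The difference between lines was tested as an interaction and was called for 0 of 15110 genes by edgeR (2250 at an unadjusted p under 0.05) and for 136 by DESeq2. For Nqo1, 11D minus 10E was 0.98 ± 0.32 (log2 ± SE, unadjusted p = 0.0106, edgeR adjusted p = 0.264), for Arnt −0.57 ± 0.30 (adjusted p = 0.385) and for Ahrr 1.28 ± 0.73 (adjusted p = 0.416). For Cyp1a1 it was 1.18 ± 1.25 with a 95% interval of −1.61 to 3.97, so a difference in either direction remains within the error (edgeR adjusted p = 0.676).

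**Figure D2:**
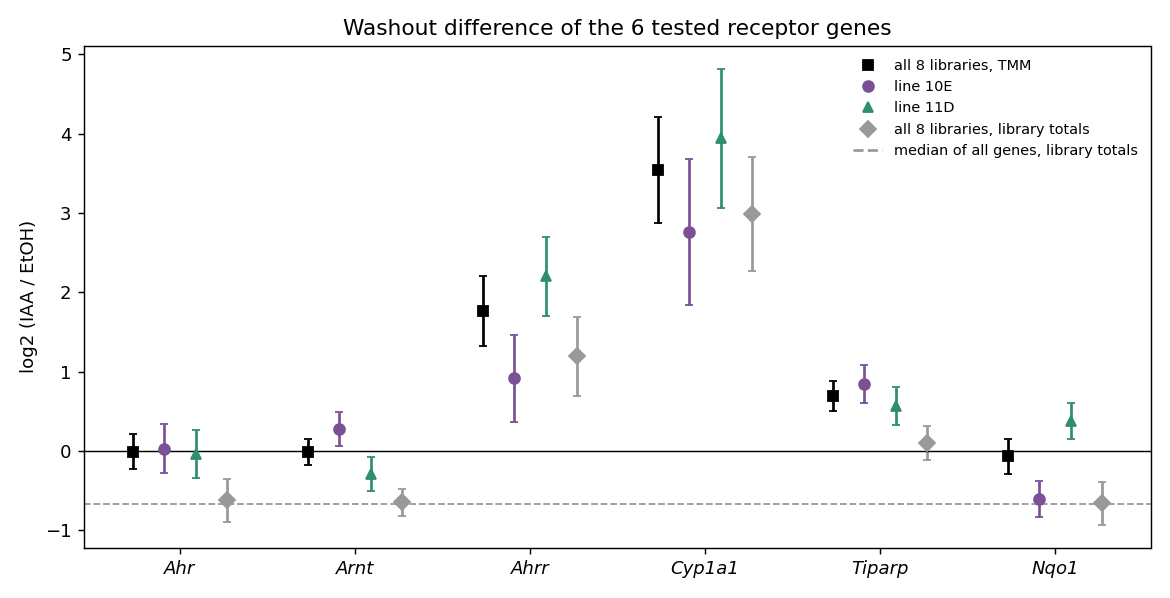
The log2 ratio of IAA to EtOH (± SE) is drawn for the 6 tested genes over all 8 libraries on the TMM scale, in line 10E, in line 11D and over all 8 libraries on library totals, with the median of all genes on library totals (−0.66) as a dashed line. Cyp1a1 and Ahrr lie above 0 under each, Tiparp lies at 0.10 on library totals, and Arnt and Nqo1 have opposite signs in the 2 lines.

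In the authors' deposited washout table, which rests on the same libraries, Cyp1a1 was at 3.45 ± 0.56 (log2 ± SE, adjusted p = 8.26e-08) and Cyp1b1 at 5.07 ± 1.37 (adjusted p = 0.00320). Ahrr was put at 1.64 ± 0.46 (adjusted p = 0.00460) and Tiparp at 0.72 ± 0.20 (adjusted p = 0.00574) by the authors' deposited table. Of the 7 members 4 were called positive and 0 negative there. The shares were 8.96% and 7.05% over the 20253 genes to which the authors' deposited table gives an adjusted p. Cyp1b1 had 1 count over the EtOH libraries and 21 over the IAA libraries, so its mean count rests on the group where it stood higher. This count of calls is therefore given as a value and supports nothing.

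The time course follows the genes while IAA or EtOH is still present. At 12 h the authors' deposited table put Cyp1b1 at 3.41 ± 0.75 (log2 fold change, shrunken by the authors, ± SE; adjusted p = 2.81e-05), rank 56 from the top of all genes. The authors' deposited table also called Nqo1 positive, at 0.77 ± 0.31 (adjusted p = 0.0209), and Arnt negative, at −0.58 ± 0.25 (adjusted p = 0.0409). Thus 2 members were called positive and 1 negative at 12 h, while the authors' deposited table called 8.58% of 15917 genes positive and 12.1% negative. For Cyp1a1 the authors' deposited table gave 1.096 ± 2.20 (adjusted p = 0.0774), an error wider than the value. The authors' deposited table gave Ahrr 0.46 ± 0.58 (adjusted p = 0.271), Ahr −0.15 ± 0.29 (adjusted p = 0.684) and Tiparp 0.03 ± 0.23 (adjusted p = 0.919).

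At 3 and 6 h 0 of 7 members were called in the authors' deposited tables. For 3 h the authors' deposited table called 0.531% of genes positive and 0.0458% negative, and 2 members had an unadjusted p under 0.05, as did 8.55% of all genes. For these the authors' deposited table gave Tiparp 0.31 ± 0.32 (unadjusted p = 0.0148) and Nqo1 0.20 ± 0.31 (unadjusted p = 0.0274). At 6 h, with 1.71% positive and 1.39% negative in the authors' deposited table, 0 members had an unadjusted p under 0.05, against 13.6% of all genes. Cyp1b1 was at 0.01 ± 0.12 at 3 h and 0.13 ± 0.26 at 6 h, and Cyp1a1 at 0.01 ± 0.12 and 0.04 ± 0.22, in the authors' deposited tables.

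At 0 h, before any treatment, 0 of 7 members were called in the authors' deposited table, with 0.0201% of genes positive and 0.355% negative. The shrinkage there sets most values to 0, but 3 members had an unadjusted p under 0.05, against 3.29% of all genes: Nqo1 (0.87 ± 0.47, unadjusted p = 0.00135), Cyp1a1 (unadjusted p = 0.00477) and Cyp1b1 (unadjusted p = 0.0318) in the authors' deposited table. Values of the 4 tables are given side by side, since the sources do not state whether the tables share libraries.

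Upstream antisense transcripts of promoters (PROMPTs) give a second readout at the same start sites. Of the 7 genes 6 had a PROMPT entry, and the one of Cyp1b1 was called at 12 h, where the authors' deposited table put it at 4.74 ± 1.03 (log2 ± SE, shrunken, adjusted p = 0.000276). Its mean normalised count was 8.16 there, against 0.664 at 3 h and 0.447 at 6 h in the authors' deposited tables. Of the 2 members' PROMPTs with an adjusted p at 12 h, Cyp1b1 and Nqo1, 1 was called positive and 0 negative. Of the 3052 to which the authors' deposited table gives an adjusted p, 3.11% were positive and 1.93% negative. The mean count that gave the Cyp1b1 PROMPT an adjusted p may rest on the group where it is high. This count of calls is therefore given as a value and supports nothing. The PROMPT of Nqo1 was at −0.33 ± 0.59 (adjusted p = 0.543, mean count 5.00) in the authors' deposited table. The other 4 had mean counts of 0 to 2.12 at 12 h and were given no adjusted p, so they could not be called. At 0, 3 and 6 h 3, 5 and 2 of the members' PROMPTs had an adjusted p and 0 were called, where 0%, 0% and 0.122% of all PROMPTs were positive and 0.00821%, 0% and 0% negative in the authors' deposited tables.

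The mean levels of Cyp1a1, Ahrr and Cyp1b1 differed by many fold between the tables. Each table gives a mean normalised count over the libraries it covers, given here as parts in 1000000 of the table's summed mean counts (ppm). The tables were normalised separately, so these ratios are a description with no test. Cyp1a1 was at 1.0498 in the 0 h table and at 37.8, 23.4 and 31.0 in the 3, 6 and 12 h tables. On the same scale Ahrr was at 0.769 at 0 h and then at 12.5, 6.77 and 9.49. Cyp1b1 was at 0.1204 at 0 h and then at 7.36, 4.53 and 6.03. All 3 were thus highest in the 3 h table. In that table their fold changes between the compared groups, shrunken by the authors, were each 0.01 ± 0.12 (log2 ± SE). Shrinkage pulls values toward 0, so these values do not show that the compared groups were equal.

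From the 0 h to the 3 h table the mean level of Cyp1b1 was 61.1 times as high, that of Cyp1a1 36.0 times and that of Ahrr 16.2 times. These were ranks 1, 2 and 3 of the 13886 genes whose mean count over the tables reached 10. Cyp1b1 had a mean count of 5.96 in the 0 h table and passed this minimum only through the later tables, so its rank and ratio are given as values and support nothing. The next was Spink1, a secreted protease inhibitor gene, at 10.3 times. Of the other members Cyp1a1 and Ahrr were at least 2 times as high at 3 h, against 1.76% of those genes, and the median gene was at 0.965. Cyp1a1 and Ahrr also passed 2-fold at 6 h (background 5.8%), at 22.3 and 8.80 times, and at 12 h (background 12.5%), at 29.6 and 12.3 times. Cyp1b1, left out of these comparisons, stood at 37.6 times at 6 h and 50.1 times at 12 h. The ranks of Cyp1b1, Cyp1a1 and Ahrr were 1, 2 and 8 at 6 h and 1, 3 and 9 at 12 h. Scaling the tables by the median ratio of all genes does not change ranks and put Cyp1b1 at 64.3 times at 3 h.

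The mean level of Tiparp differed less between tables, at 93.1 ppm at 0 h and 176, 144 and 111 ppm at 3, 6 and 12 h. That was 1.89 times the 0 h level at 3 h, rank 311, and 1.19 times at 12 h, rank 5512. Nqo1 stood at 27.6 ppm and then at 36.2, 35.6 and 35.3 ppm. The receptor and its partner lay lower in the later tables, Ahr at 43.7 and then 33.6, 27.6 and 27.1 ppm, and Arnt at 233 and then 173, 163 and 161 ppm. In the later tables Cyp1a1, Cyp1b1 and Ahrr thus stood higher and Ahr and Arnt lower, while Tiparp and Nqo1 at 12 h (1.19 and 1.28 times) lay near the median gene (1.06). The 0 h libraries were untreated, treatment began with fresh medium, and the libraries in each table are not stated, so IAA, EtOH, medium and time cannot be told apart in these ratios.

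**Figure D3:**
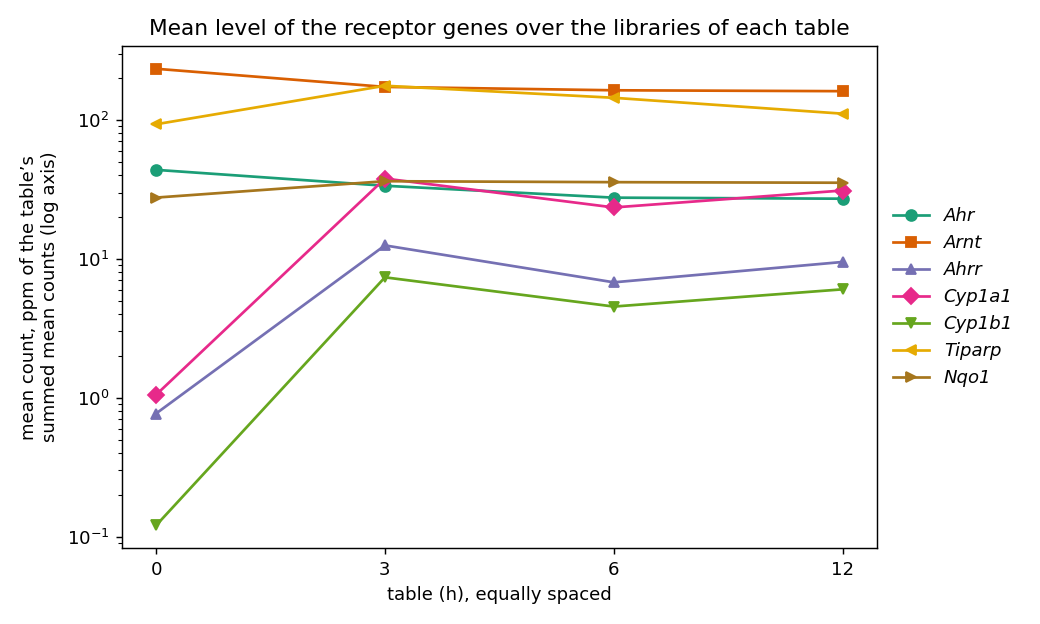
The mean count of each gene in ppm (parts in 1000000 of the table's summed mean counts, log axis) is drawn for the 0, 3, 6 and 12 h tables. Cyp1a1, Ahrr and Cyp1b1 lie at 37.8, 12.5 and 7.36 ppm in the 3 h table, far above their 0 h levels, while Ahr and Arnt lie below theirs.

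Genes of the machinery around the receptor were called in the washout, at 12 h and at 3 h. The direction of the time-course comparisons is not stated, so their signs cannot be set against those of the washout. Of 13 genes of the receptor complex and its coactivators 3 were higher after the washout and 0 lower: Hsp90ab1, an HSP90 chaperone that holds the free receptor (log2 0.97 ± 0.20, edgeR adjusted p = 0.00733), and the acetyltransferases Crebbp (0.67 ± 0.18, adjusted p = 0.0271) and Ep300 (0.52 ± 0.16, adjusted p = 0.0363). The list's median was 0.14, against −0.05 over all genes tested. All 13 had mean counts of at least 100, and of all tested genes at that level 8.998% were higher and 7.57% lower. On library totals none of these 3 was called, with Hsp90ab1 at 0.34, Crebbp at 0.05 and Ep300 at −0.09. At 12 h the authors' deposited table called 6 of the 13 negative and 0 positive, with a median of −0.50 against 0.01 over all genes. Among all genes with mean counts of at least 100 the authors' deposited table called 16.9% negative and 6.80% positive at 12 h, with a median of −0.07. They were the coactivator Ncoa3 (−1.12), the Mediator subunit Med1 (−0.91), the kinase Src (−0.80), Crebbp (−0.76), the chromatin remodeller Smarca4 (−0.68) and Ep300 (−0.64) in the authors' deposited table. For 3 h the authors' deposited table called 2 positive, Hsp90ab1 (1.16 ± 0.36, adjusted p = 0.0408) and Hsp90aa1 (1.02 ± 0.33, adjusted p = 0.0408), both genes of HSP90 chaperones. Among all genes with mean counts of at least 100 the authors' deposited table called 0.544% positive and 0.0469% negative at 3 h.

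Other known targets of the receptor are mostly described in liver and barrier tissues. Of 18 on the list 5 passed the filter in the washout and 0 were called by edgeR (2 at an unadjusted p under 0.05, 1 by DESeq2), with a median of −0.33. They were Slc7a5, Nfe2l2, Socs2, Cdkn1b and Nedd9, of which Cdkn1b was nearest to a call (−0.66 ± 0.22, edgeR adjusted p = 0.0593). Over all genes tested in the washout 8.83% were higher and 7.60% lower, with a median of −0.05. On library totals Cdkn1b (−1.26), Slc7a5 (−1.14), Socs2 (−0.96) and Nfe2l2 (−0.57) were called lower and Nedd9 (0.18) was not called. The median gene was at −0.66 there, and 7422 of 15110 genes were called lower. At 12 h the authors' deposited table gave 12 of the 18 listed targets an adjusted p, and 2 of these were positive. They were the growth factor genes Areg (0.37 ± 0.71, adjusted p = 0.0435) and Ereg (0.35 ± 0.68, adjusted p = 0.0489) in the authors' deposited table, both with mean counts near 2.2. The 2 negative ones were Nfe2l2, which encodes NRF2 (−0.80 ± 0.25, adjusted p = 0.00289, per the authors' deposited table), and the cytokine signalling inhibitor Socs2 (−0.62 ± 0.23, adjusted p = 0.0177). Of all genes the authors' deposited table called 8.58% positive and 12.1% negative at 12 h. Cyp1a2, the liver P450 gene related to Cyp1a1, was put at 1.00 ± 1.19 by the authors' deposited table (adjusted p = 0.0897, mean count 9.85).

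Of 16 genes of tryptophan and indole metabolism, which make or remove natural ligands, 7 were tested in the washout, with 0 higher and 2 lower. Over all genes tested 8.83% were higher and 7.60% lower. The 2 lower genes were Maoa, a monoamine oxidase (−1.38 ± 0.35, edgeR adjusted p = 0.0208), and Il4i1, an oxidase of aromatic amino acids (−1.03 ± 0.27, adjusted p = 0.0222). In the authors' deposited tables, whose direction is not stated, Il4i1 was negative at 6 h (−1.07 ± 0.25, adjusted p = 0.000608) and at 12 h (−2.55 ± 0.40, adjusted p = 2.03e-09). At 12 h Kyat1, a kynurenine aminotransferase, was positive in the authors' deposited table at 0.96 ± 0.28 (adjusted p = 0.00215), so that 1 of 12 was positive and 1 negative there. Of all genes 8.58% were positive and 12.1% negative in that deposited table.

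Among 13 relatives of AHR and ARNT in the bHLH-PAS family, 12 were found and 8 tested in the washout. The hypoxia factor Epas1 was higher (0.71 ± 0.20, edgeR adjusted p = 0.0291) and Hif3a lower (−1.78 ± 0.23, adjusted p = 0.000597), while Arnt2, the closest relative of Arnt, was at 0.49 ± 0.17 (adjusted p = 0.0611). At 12 h the authors' deposited table called Clock (−0.75 ± 0.33, adjusted p = 0.0303) and Hif1a (−0.62 ± 0.25, adjusted p = 0.0298) negative. Of all genes it called 8.58% positive and 12.1% negative. At 0 h the authors' deposited table called Npas2 negative (adjusted p = 0.00539), with a value shrunken to near 0. Of 8 targets of NRF2, the other factor that drives Nqo1, 1 was higher in the washout, Gclc (0.65 ± 0.19, edgeR adjusted p = 0.0325), and 1 lower, Srxn1 (−0.80 ± 0.18, edgeR adjusted p = 0.0115). For both lists the shares over all genes tested in the washout were 8.83% higher and 7.60% lower. On library totals Gclc (0.04), like Epas1 (0.07), was not called. At 12 h 0 of these 8 were called in the authors' deposited table, where Nqo1 was positive.

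The neighbours of the members were compared to see whether whole regions moved. Of the 14 nearest tested neighbours, 1 on each side of each member, 1 was higher and 1 lower in the washout. Of all genes tested 8.83% were higher and 7.60% lower. Exoc3, which lies 2.39 kb from the end of Ahrr, was higher (0.68 ± 0.16, edgeR adjusted p = 0.0134; 0.07 and not called on library totals), and Tspan13, which lies 479.5 kb from Ahr, was lower (−0.67 ± 0.15, adjusted p = 0.0129). Next to Cyp1a1, Csk stood at −0.19 ± 0.16 and Edc3 at 0.02 ± 0.15 (edgeR adjusted p = 0.452 and 0.934). Next to Cyp1b1, Rmdn2 stood at 0.35 ± 0.21 and Atl2 at 0.38 ± 0.16 (edgeR adjusted p = 0.274 and 0.128). At 12 h 2 neighbours were negative in the authors' deposited table, Ctsk beside Arnt (−2.64, adjusted p = 4.45e-05) and Atl2 beside Cyp1b1 (−0.68, adjusted p = 0.0168), where Cyp1b1 was positive. Of all genes 12.1% were negative and 8.58% positive in that deposited table.

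Genes with the pattern most like that of 2 members were named by a measure of likeness. Over the 4 gene tables, Adgrg3, Rai2, Rgs2, Pou3f2 and Irs4 lay nearest to Cyp1b1 in the authors' deposited fold changes, at a Euclidean distance of 0.0600 to 0.105 (log2). All 5 were near 0 at 3 and 6 h and at 3.34 to 3.47 at 12 h in the authors' deposited tables, with mean counts at 12 h of 6.14 to 23.5, below the 129.6 of Cyp1b1. Over the 8 washout libraries the genes most like Tiparp in log2 CPM were Dcaf13, Hnrnpll, Dck, Sf3b1 and Pold3, with Pearson r from 0.969 to 0.984 and fold changes of 0.26 to 0.62 (log2), of which Sf3b1 was called (edgeR adjusted p = 0.0284). Those most like Cyp1b1 were Dlst, Sel1l, Slc4a1ap, Cep95 and Trpc4ap (r from 0.975 to 0.985), of which Trpc4ap was called (0.53, edgeR adjusted p = 0.0330). Cyp1b1 did not pass the filter, so its levels were taken as log2 of CPM plus 0.1. The genes compared with it kept edgeR's log2 CPM (prior count 2). At counts of 0 the added 0.1 alone sets the Cyp1b1 value, so r with Cyp1b1 depends on that choice. With Cyp1b1, Tiparp had r = 0.73, Cyp1a1 0.56, Ahrr 0.40 and Nqo1 −0.64, and Tiparp, the closest member, ranked 2167th among the tested genes. These r values are a description over 8 libraries that share treatment, line and depth.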

How the data were processed

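TT-seq reads were processed by the authors before deposit. Per the file headers, the deposited counts are whole numbers of read pairs per gene, counted with featureCounts 2.0.1 on mm10 over gene bodies, summed by gene name, reverse-stranded and with both ends mapped. STAR is named in the submitters' processing notes, with no version. The time-course tables hold the authors' mean normalised signal per gene, their log2 fold changes and standard errors, which the values show to be shrunken toward 0, and their p-values and adjusted p-values. Per the file headers, their columns are named as DESeq2 names its results, and the deposited washout table also holds the authors' Wald score per gene, which was not used. The deposited washout table is not shrunken, and a DESeq2 fit with line and treatment gave its log2 fold changes within 0.01 in 15214 of 15214 genes whose mean count reached 10 (47.1% with treatment alone). Tables of enhancers and DNase-hypersensitive sites were not used here.

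The 4 IAA and 4 EtOH washout libraries were compared with edgeR 4.0.16 in R 4.3.3 (quasi-likelihood, robust, two-sided, TMM, filterByExpr, Benjamini-Hochberg over 15110 genes, threshold 0.05). Intervals are at 95%. Line pairs the samples by design. Libraries with the same line and number had correlations of their deviations from −0.497 to 0.345, so numbers do not pair them. Alternatives were DESeq2 1.42.0, no filter, blocks, single lines and left-out libraries. Library totals without scaling factors, totals without the 10 top loci, libraries of 1 number alone and the second scaling of mean levels were chosen after the data were seen. Groups follow the sample titles, since the labels' tag and treatment fields contradict them for many time-course libraries, and which titled clone is line 10E or 11D is not given. The genes and lists were chosen with earlier results of these data known. Named are all members, list genes past the threshold (up to 6 per list and comparison), the nearest tested neighbours and the 5 most similar genes to Cyp1b1 and to Tiparp. The genes Cyp1a2, Cdkn1b, Arnt2, Slc7a5, Nedd9 and Spink1 fall outside this rule and were named after their values were seen.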

Additional observations from a re-analysis of the deposited data

Results flagged for a closer look

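Arnt and Nqo1 had IAA libraries on opposite sides of the EtOH libraries in the 2 lines, with both IAA libraries of a line on the same side. For Arnt the IAA minus EtOH difference in line 11D less that in 10E was −0.57 (log2, edgeR interaction adjusted p = 0.385), and for Nqo1 it was 0.98 (adjusted p = 0.264), so the test of the difference itself did not pass for either. The libraries of 1 line share a clone, and line and clone cannot be told apart. For Cyp1b1 the 11D EtOH library at 0.0549 CPM stood apart from the other EtOH libraries at 0, which is 1 count against 0. Any 1 count beside 3 zeros stands apart in this way by construction, so the rate of about 1 in 20 groups at which chance sets measured values apart does not apply to it.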

How the results depend on the processing

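In every alternative run on the washout counts, single lines, blocks and left-out libraries included, Cyp1a1, Ahrr and Tiparp had IAA above EtOH, at 2.65 to 4.63, 0.92 to 2.24 and 0.10 to 0.85 (log2). Leaving out 1 library gave 3.16 to 3.89 for Cyp1a1, 1.45 to 1.99 for Ahrr and 0.59 to 0.83 for Tiparp. The replicate block by line moved no member across the threshold. With line and number as a block Ahrr was at 1.64 and not called, and 829 genes were higher and 638 lower. In line 10E alone Cyp1a1 (2.76) and Ahrr (0.92) were not called. In line 11D alone Tiparp (0.57) was not called, and 241 genes were higher and 154 lower. Among number 2 libraries Cyp1a1 (2.65), Ahrr (1.40) and Tiparp (0.75) were not called (63 higher, 23 lower), and among number 1 libraries Tiparp (0.68) was not, with 511 genes lower. These subsets hold fewer libraries. On library totals Ahrr (1.20) and Tiparp (0.10) were not called and Arnt (−0.65) was called lower, with 433 genes higher and 7422 lower. DESeq2 called 2032 genes higher, and 1925 were lower with no filter, which tests more genes. Leaving out 1 library gave 799 to 1432 higher and 593 to 1209 lower calls, the lowest without the first IAA library (799) and the second EtOH library (593) of line 10E, and 616 and 729 lower without its first and second IAA library. Interaction calls were 136 by DESeq2 and 0 to 5 without 1 library, with 5 without the first EtOH library of line 11D. Adjusting over every feature with a p-value left 2 positive and 0 negative genes at 3 h, and 38 positive and 21 negative PROMPTs at 12 h. For differences that were lost the cause was not tested beyond the smaller number of libraries or larger number of tests. Depth limits Cyp1b1, Cyp1a1 and Ahrr most, each with at most 103 counts in any library.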
